A study of Homo sapiens with 6 samples.

Results

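The core regulators of the ATF4 stress response were followed through 10 genes, ATF4, DDIT3, TRIB3, CHAC1, PPP1R15A, EIF2AK3, EIF2AK4, CEBPB, CEBPG and ATF5, taken by symbol from the 29436 rows of a raw count table. All 10 were found, and all 10 were among the 13780 genes that passed the filter on low counts. The cells were hemogenic endothelium, the endothelium that gives rise to blood, grown on AGM-S3 stroma from H1, an established line of human embryonic stem cells. Alpha lipoic acid, an antioxidant and mitochondrial cofactor, was present in the inducing medium at 100 µg/ml for 3 libraries (ALA) and absent for 3 (Ctrl). On day 8, cells positive for CD34, KDR and CD144 and negative for CD43 were sorted, and amplified polyA cDNA from 1000 cells was sequenced for each library. The labels do not say that the replicates of a group came from separate differentiations, so the p-values measure the spread between these libraries only, which may be technical.

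The integrated stress response joins several stress sensors to one outcome. The kinases PERK (EIF2AK3), GCN2 (EIF2AK4), PKR and HRI phosphorylate the initiation factor eIF2, which lowers general protein synthesis and favours translation of ATF4, a leucine zipper transcription factor of the CREB and ATF family. ATF4, often as a dimer with a C/EBP factor, switches on genes of amino acid supply together with CHOP (DDIT3), TRIB3, CHAC1 and the phosphatase adaptor GADD34 (PPP1R15A), which reverses the phosphorylation. ATF4 is controlled to a large extent in translation, and the counts used here measure transcript only.

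Sequences in front of 3 of the genes are shown because ATF4 and C/EBP dimers are known to bind a composite element with the core TGATGCAA, and CREB and ATF factors the cyclic AMP element TGACGTCA. RefSeq windows on GRCh38.p14 were matched for all 10 genes by symbol, and the 250 bases before each start were searched on both strands. The composite core stood before the RefSeq start of CHAC1 (chr15:40953221-40953470, plus strand, where it reads TTGCATCA) and before 1 of 2 RefSeq starts of CEBPG (chr19:33373863-33374112, plus strand). The cyclic AMP element, which reads the same on both strands, stood before the RefSeq start of PPP1R15A (chr19:48872171-48872420, plus strand). These starts lie at 40953471 for CHAC1, 33374113 for CEBPG and 48872421 for PPP1R15A, each inside the span that GENCODE v29 gives the gene, so the windows of CHAC1 and CEBPG lie wholly within that span. Capitals mark the matches.
CHAC1: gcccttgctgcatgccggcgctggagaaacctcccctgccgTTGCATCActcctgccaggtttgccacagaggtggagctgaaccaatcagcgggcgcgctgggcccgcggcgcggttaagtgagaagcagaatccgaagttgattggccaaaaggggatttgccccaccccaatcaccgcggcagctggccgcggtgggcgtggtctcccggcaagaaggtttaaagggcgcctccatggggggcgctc
CEBPG: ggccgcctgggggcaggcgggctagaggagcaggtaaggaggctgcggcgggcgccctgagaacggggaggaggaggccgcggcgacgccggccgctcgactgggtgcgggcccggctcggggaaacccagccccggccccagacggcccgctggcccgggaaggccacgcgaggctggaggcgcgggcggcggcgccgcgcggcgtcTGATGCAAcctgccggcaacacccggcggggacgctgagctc
PPP1R15A: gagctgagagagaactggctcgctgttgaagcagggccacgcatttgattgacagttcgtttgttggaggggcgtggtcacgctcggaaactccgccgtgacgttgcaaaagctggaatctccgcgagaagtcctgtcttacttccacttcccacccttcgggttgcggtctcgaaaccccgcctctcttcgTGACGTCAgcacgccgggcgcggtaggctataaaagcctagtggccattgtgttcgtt
The match began 209 bases before the start in CHAC1, 42 bases before it in CEBPG and 58 bases before it in PPP1R15A. The 10 genes had 18 windows, 1 for each listed start, of which 2 held TGATGCAA and 1 held TGACGTCA. Of all 35116 windows in the table, 0.772% held TGATGCAA and 1.65% held TGACGTCA, and of all 27305 genes 0.967% and 2.03% held them in at least 1 window. With one free base, TGATGNAA, which includes the first motif, was held by 3.14% of windows and by no further gene of the 10. A match is a run of letters and says nothing of binding.

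Total counts ran from 31404734 to 41351951 in ALA and from 30041494 to 32034433 in Ctrl libraries. Over 99% of nonzero counts were even numbers in the 3 ALA libraries and in Ctrl replicate 1, against 52.01% and 51.97% in Ctrl replicates 2 and 3, so that a count in those 4 libraries may stand for less than 1 independent read. Levels are given as CPM, the usual scaling of counts to library size, on library sizes scaled by the trimmed mean of M values, and the fitted changes are from the edgeR quasi-likelihood test with Benjamini-Hochberg adjustment over all tested genes. Of the gate transcripts, CD34, KDR and CDH5 (CD144) were all measured above 500 CPM on average in both groups, but they differed between the groups. CD34 fell (813 CPM in ALA and 1451 CPM in Ctrl, log2 fold change -0.84, adjusted p = 1.13e-06). CDH5 fell (556 CPM in ALA and 864 CPM in Ctrl, -0.64, adjusted p = 0.000344). KDR rose (4813 CPM in ALA and 4115 CPM in Ctrl, 0.23, adjusted p = 0.00409). SPN (CD43) stood at 0 counts throughout. For SPN, 3 independent counts would have been 0.145 to 0.190 CPM in an ALA library and 0.0997 to 0.185 CPM in a Ctrl library (counting error alone). Means are given ± SD over 3 libraries of a group. The marker counts below stand against 24.2% of all tested genes that rose and 23.3% that fell. Of 6 tested endothelial markers 1 rose and 3 fell, with a summed level of 3827 to 3935 CPM in ALA and 4971 to 5060 CPM in Ctrl libraries. Transcripts listed as markers of cells outside the gate moved with treatment, and a listed transcript need not be particular to those cells. Of 8 tested endoderm and hepatic markers 7 rose, with a summed level of 148 to 220 CPM in ALA and 27.5 to 40.3 CPM in Ctrl libraries. Among them FOXA2 had 80, 118 and 154 counts in ALA replicates 1 to 3 and 8, 0 and 0 in Ctrl replicates 1 to 3. Of 6 tested epithelial markers 4 rose and 1 fell, with sums of 445 to 522 CPM in ALA and 297 to 329 CPM in Ctrl libraries. Most of these sums came from KRT8 and KRT18. CDH1 had 454, 300 and 500 counts in ALA replicates 1 to 3 and 0, 0 and 1 in Ctrl replicates 1 to 3, while CLDN7 fell (54.0 CPM in ALA and 76.0 CPM in Ctrl). Of 4 tested megakaryocytic markers 3 rose (26.9 to 29.5 CPM in ALA and 6.19 to 7.38 CPM in Ctrl). SELP made up most of these sums (21.3 CPM in ALA and 5.25 CPM in Ctrl), against 3.74 CPM in ALA and 0.415 CPM in Ctrl for PF4. Of 9 mesenchymal markers 5 fell, with sums that overlapped between the groups (1440 to 1984 CPM in ALA and 1890 to 2527 CPM in Ctrl). Of the 5, PDGFRB and COL1A1 also overlapped between the groups. Of 3 tested blood and myeloid markers 2 fell, LAPTM5 (244 CPM in ALA and 290 CPM in Ctrl) and FCER1G (5.26 CPM in ALA and 11.5 CPM in Ctrl), and the list summed to 240 to 266 CPM in ALA and 294 to 310 CPM in Ctrl libraries. EPOR, the 1 erythroid marker tested, was not called, with sums of 70.2 to 94.4 CPM in ALA and 74.4 to 87.3 CPM in Ctrl libraries for its list. Of 2 tested pluripotent markers LIN28A rose (22.4 CPM in ALA and 13.3 CPM in Ctrl) and DPPA4 was not called (62.3 CPM in ALA and 65.3 CPM in Ctrl), with sums of 84.4 to 85.3 CPM in ALA and 76.2 to 81.2 CPM in Ctrl libraries. PTPRC, SPI1 and MPO of the blood list, HBE1 and HBA1 of the erythroid list, PPBP of the megakaryocytic list and POU5F1 and SOX2 of the pluripotent list had no count. Some untested genes of these lists had a few counts in a single group. NANOG had 4, 10 and 6 counts in ALA replicates 1 to 3 and 0 in Ctrl. HBG2 had 0 in ALA and 4, 8 and 11 counts in Ctrl replicates 1 to 3. CD33 of the blood list had 0 in ALA and 40, 10 and 8 counts in Ctrl replicates 1 to 3. LYZ of the same list went the other way, with 4, 24 and 14 counts in ALA replicates 1 to 3 and 0, 0 and 2 in Ctrl replicates 1 to 3. Transcripts of the mitochondrial genome made up 4.79% ± 0.350 of counts in ALA and 2.65% ± 0.184 in Ctrl libraries (SD, n = 3 each, exact two-sided permutation p = 0.1, the smallest that 3 against 3 can give). The part of these differences in the changes of the stress regulators was not tested. In bulk libraries, more cells with a transcript and more transcript per cell cannot be told apart.

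Most of the regulators stood higher with lipoic acid, by amounts that differed widely. Of the 10 genes, 7 rose (ATF4, DDIT3, TRIB3, PPP1R15A, EIF2AK3, EIF2AK4 and CEBPG), while among all tested genes 24.2% rose. No member fell (0 by edgeR, 0 at an unadjusted p under 0.05, 0 by DESeq2 and 0 by limma voom), while 23.3% of tested genes fell, and CHAC1, CEBPB and ATF5 did not pass. The same 7 had every ALA library above every Ctrl library, which held for 30.4% of tested genes. The median log2 fold change was 0.45 over the 10 genes and -0.0081 over all tested genes. Only DDIT3 reached a 2-fold rise in the reported fit, which 7.92% of tested genes did. ATF4 fell just short at 1.995-fold, and its log2 fold change ran from 0.96 to 1.14 in the other settings, on both sides of that cut. The summed level of the 10 genes was 1675, 1664 and 1623 CPM in ALA replicates 1 to 3 and 1057, 1051 and 1013 CPM in Ctrl replicates 1 to 3.

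**Figure D1:**
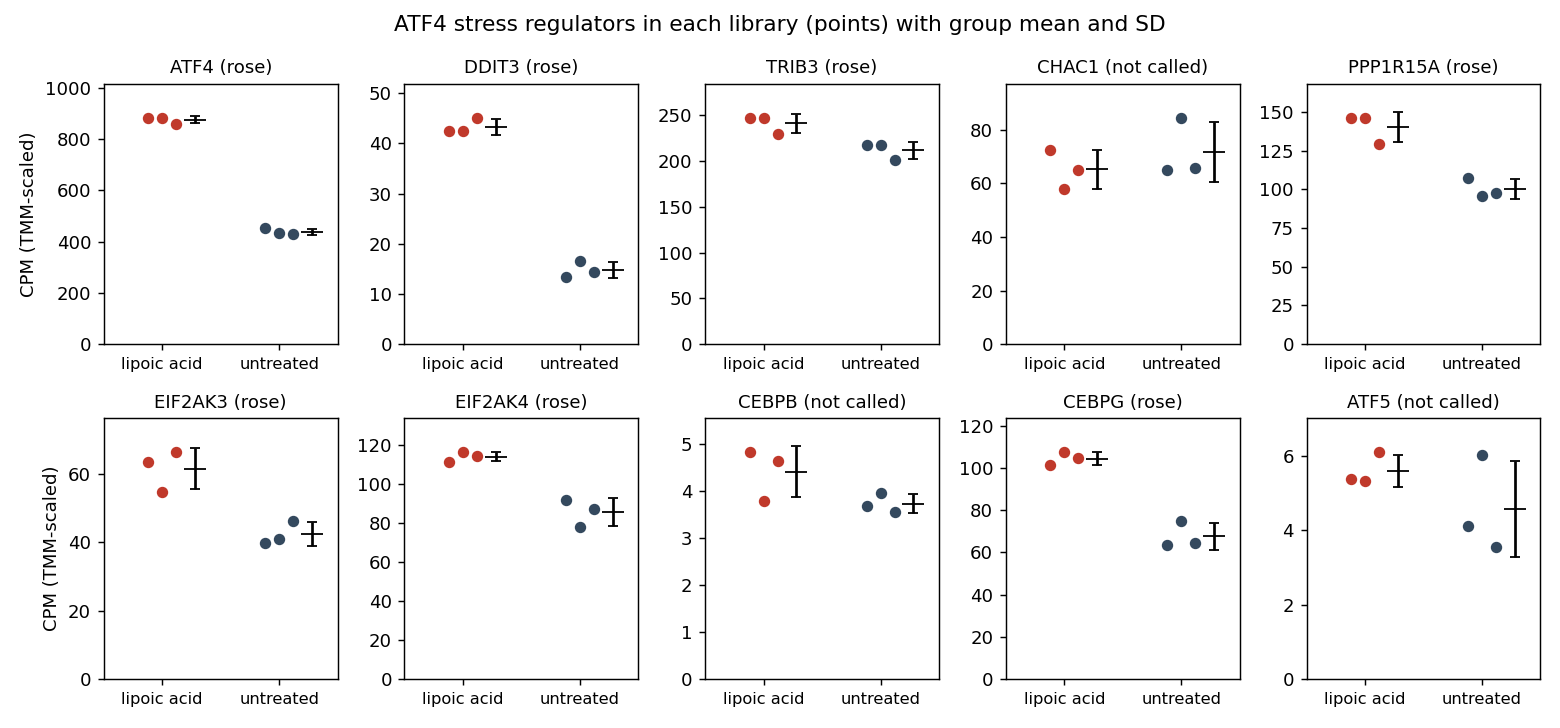
CPM of each regulator (y axis, from 0) in the 3 lipoic acid libraries (red) and the 3 untreated libraries (dark blue), with the group mean and SD as black bars. ATF4 and DDIT3 show the widest gap between the groups, and the libraries of CHAC1, CEBPB and ATF5 overlap.

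ATF4 itself, the factor at the centre of the response, was the most abundant of the 10 per kilobase of exon and close to doubled. It measured 881, 883 and 858 CPM in ALA replicates 1 to 3, against 451, 434 and 429 CPM in Ctrl replicates 1 to 3. The replicates of each group lay close together, with a coefficient of variation of 1.56% in ALA and 2.64% in Ctrl, and the groups were far apart. The fitted fold was 1.995 (log2 fold change 1.00 ± 0.0479 SE, 95% interval of the fold 1.85 to 2.15, adjusted p = 4.18e-07). ATF4 lies on chromosome 22 (39519695 to 39522685, plus strand, GENCODE v29 on GRCh38). It has pseudogene copies in that annotation (ATF4P1 to ATF4P4), none of which had a row of its own in the counts. How reads that fit both were counted was not given in the sources used here. Of all tested genes, 9.40% had a larger log2 fold change than ATF4.

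DDIT3, which encodes CHOP, the factor tied to cell death when endoplasmic reticulum stress lasts, showed the largest change of the 10. Its level was 42.4, 42.4 and 45.1 CPM in ALA replicates 1 to 3, against 13.4, 16.5 and 14.5 CPM in Ctrl replicates 1 to 3. The fitted fold was 2.93 (log2 fold change 1.55 ± 0.0954 SE, adjusted p = 2.15e-06), with a 95% interval of 2.53 to 3.39, and 5.83% of tested genes had a larger fold. DDIT3 (chromosome 12, 57516588 to 57521737, minus strand) shares 31.6% of its exonic length with genes of the other strand, among them MARS, and 8.0% with a gene of its own strand. MARS, a tRNA synthetase gene and itself an ATF4 target, averaged 328 ± 10.6 CPM in ALA and 177 ± 6.66 CPM in Ctrl libraries (log2 fold change 0.89, adjusted p = 2.45e-06). Strand use in counting was not given, so reads of the shared stretch cannot be told apart.

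Both sensor kinases rose to a modest degree. EIF2AK3, the kinase PERK of the endoplasmic reticulum membrane, stood at 63.5, 54.8 and 66.4 CPM in ALA replicates 1 to 3, against 39.7, 41.003 and 46.4 CPM in Ctrl replicates 1 to 3. Every ALA library was above every Ctrl library, with a fitted fold of 1.45 (log2 fold change 0.54 ± 0.0919 SE, adjusted p = 0.00105). EIF2AK3 lies on chromosome 2 (88556741 to 88627576, minus strand), with 15.1% of its exonic length covered by genes on the other strand. EIF2AK4, the kinase GCN2 that senses uncharged tRNA, stood at 111, 116 and 114 CPM in ALA replicates 1 to 3, against 91.7, 77.9 and 86.9 CPM in Ctrl replicates 1 to 3. The ALA libraries were tight (2.09% coefficient of variation) and the Ctrl libraries wider (8.22%), without overlap, and the fold was 1.33 (log2 fold change 0.41 ± 0.0718 SE, adjusted p = 0.00117, and 0.20 with a trend of the counts with GC content and length removed). EIF2AK4 lies on chromosome 15 (39934146 to 40035591, plus strand). EIF2AK3 counts were 57.0%, 47.2% and 58.0% of EIF2AK4 counts in ALA replicates 1 to 3 and 43.3%, 52.6% and 53.4% in Ctrl replicates 1 to 3. This ratio of the kinases overlapped between the groups (exact two-sided permutation p = 0.5).

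Of the other leucine zipper factors among the 10, beside ATF4 and DDIT3, CEBPG rose and CEBPB and ATF5 did not pass. CEBPG, a C/EBP factor that dimerises with ATF4, measured 101, 107 and 105 CPM in ALA replicates 1 to 3, against 63.3, 75.1 and 64.5 CPM in Ctrl replicates 1 to 3. The groups were apart, with a fitted fold of 1.54 (log2 fold change 0.63 ± 0.0770 SE, adjusted p = 0.000153). CEBPG is on chromosome 19 (33373330 to 33382686, plus strand), and the window before the later of its RefSeq starts, which holds the composite core, is printed above.

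CEBPB and ATF5 were the least abundant of the 10 per kilobase of exon and were not called. CEBPB, a C/EBP factor of stress and differentiation, had 4.83, 3.80 and 4.64 CPM in ALA replicates 1 to 3, against 3.69, 3.96 and 3.56 CPM in Ctrl replicates 1 to 3. The highest Ctrl library lay above the lowest ALA library, and the 95% interval of the fold ran from 0.864 to 1.63 (adjusted p = 0.348). CEBPB (chromosome 20, 50190734 to 50192689, plus strand) is the richest of the 10 in G and C, at 66.2%. With the GC and length trend removed it was called, at a log2 fold change of 0.63 against 0.25 (adjusted p = 0.0242). ATF5, a close relative of ATF4, had 5.38, 5.32 and 6.09 CPM in ALA replicates 1 to 3, against 4.12, 6.02 and 3.56 CPM in Ctrl replicates 1 to 3. Ctrl replicate 2 lay among the ALA libraries, and the 95% interval of the fold ran from 0.862 to 1.74 (adjusted p = 0.311). Without Ctrl replicate 2, ATF5 was called (log2 fold change 0.54, adjusted p = 0.0426), as it was by limma voom with quality weights (adjusted p = 0.0249). ATF5 (chromosome 19, 49928702 to 49933935, plus strand) shares 21.2% of its exonic length with the other strand, where NUP62 lies, a nuclear pore gene at 97.6 ± 4.55 CPM in ALA and 105 ± 8.24 CPM in Ctrl libraries.

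Of the feedback and effector genes, PPP1R15A and TRIB3 rose and CHAC1 did not pass. PPP1R15A, the stress-induced adaptor GADD34 that brings protein phosphatase 1 to eIF2, measured 146, 146 and 129 CPM in ALA replicates 1 to 3, against 107, 95.4 and 97.7 CPM in Ctrl replicates 1 to 3. The groups did not overlap, and the fold was 1.40 (log2 fold change 0.49 ± 0.0739 SE, adjusted p = 0.000549). PPP1R15A is on chromosome 19 (48872392 to 48876057, plus strand). Its constitutive counterpart PPP1R15B, which does the same without stress, averaged 69.6 ± 1.58 CPM in ALA and 69.9 ± 4.06 CPM in Ctrl libraries (adjusted p = 0.953). PPP1R15A counts were 208%, 215% and 182% of PPP1R15B counts in ALA replicates 1 to 3 and 147%, 146% and 137% in Ctrl replicates 1 to 3, again without overlap. The exact two-sided permutation p was 0.1, the smallest possible, and 0.11 after Benjamini-Hochberg adjustment. The share of all genes with such a ratio apart was not computed.

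TRIB3, a pseudokinase induced by ATF4 and CHOP that feeds back on both, was the second most abundant of the 10 per kilobase of exon and rose by little. It had 246, 247 and 229 CPM in ALA replicates 1 to 3, against 217, 217 and 201 CPM in Ctrl replicates 1 to 3. The lowest ALA library was above the highest Ctrl library by a small margin. The fold was 1.14 (log2 fold change 0.19 ± 0.0594 SE, adjusted p = 0.0263, 95% interval of the fold 1.04 to 1.25). This call was lost without ALA replicate 1 (log2 fold change 0.18, adjusted p = 0.0844), without ALA replicate 2 (0.18, adjusted p = 0.0760), without Ctrl replicate 3 (0.15, adjusted p = 0.0891) and in the 4 libraries of even counts alone (0.15, adjusted p = 0.105). With the GC and length trend removed the log2 fold change was 0.38 (adjusted p = 0.000288). TRIB3 lies on chromosome 20 (362835 to 397559, plus strand).

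CHAC1, an enzyme that breaks down glutathione and a known target of the ATF4 and CHOP branch, had 72.6, 58.1 and 65.2 CPM in ALA replicates 1 to 3. Its Ctrl replicates 1 to 3 had 64.9, 84.6 and 65.7 CPM, so that the groups overlapped and Ctrl replicate 2 stood highest. The log2 fold change was -0.13 ± 0.115 SE (adjusted p = 0.358), and the 95% interval of the fold, 0.764 to 1.09, leaves out the rise seen for ATF4 and for DDIT3. The sign was not stable: it turned to 0.0019 without Ctrl replicate 2, to 0.011 in the 4 libraries of even counts and to 0.15 with the GC and length trend removed. CHAC1 is on chromosome 15 (40952962 to 40956519, plus strand), and the window before its RefSeq start holds the same composite core as that of CEBPG, which was called. CEBPG counts were 11.52%, 12.16% and 12.18% of ATF4 counts in ALA replicates 1 to 3 and 14.03%, 17.30% and 15.03% in Ctrl replicates 1 to 3.

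**Figure D2:**
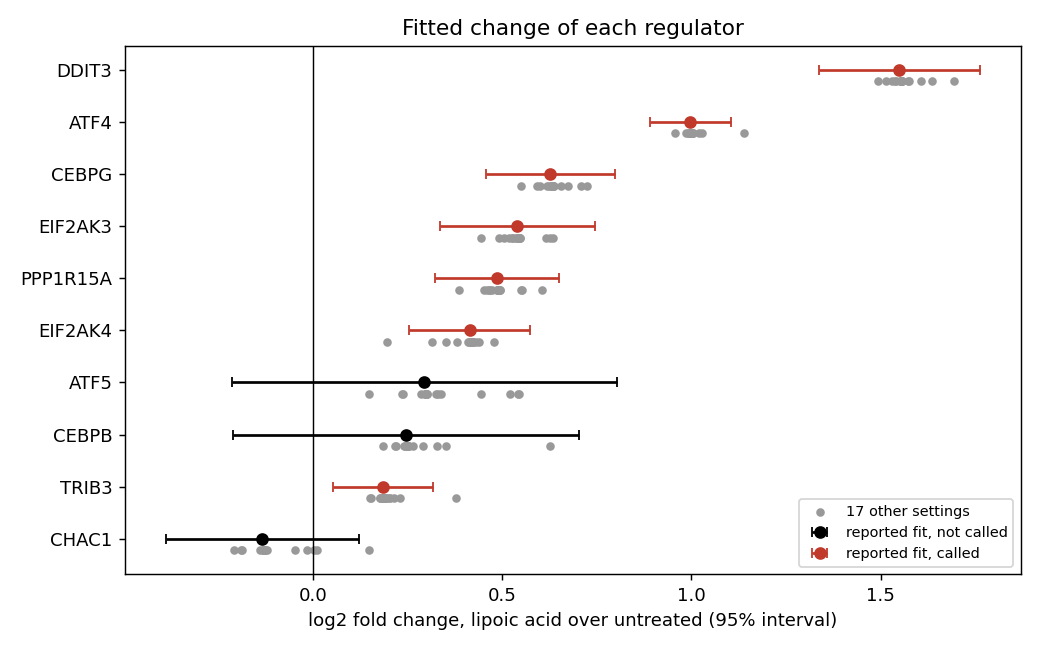
Log2 fold change of each regulator, lipoic acid over untreated (x axis), with its 95% interval in the reported fit (red where called, black where not) and the value under each of 17 other settings (grey). DDIT3 at 1.55 and ATF4 at 1.00 have intervals above those of the other 8, and CHAC1 is the one gene with a negative value, -0.13.

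Counts of one gene over another in the same library do not depend on library scaling. Of the 9 ratios to ATF4, 8 were lower in every ALA library than in every Ctrl library and 1, that of DDIT3, was higher. Among all tested genes, 9.40% had a larger log2 fold change than ATF4, so a lower ratio to ATF4 is not particular to these regulators. The share of all genes whose ratios to ATF4 did not overlap between groups was not computed. DDIT3 counts were 4.81%, 4.80% and 5.25% of ATF4 counts in ALA replicates 1 to 3 and 2.97%, 3.81% and 3.37% in Ctrl replicates 1 to 3. TRIB3 counts were 27.98%, 27.98% and 26.66% of ATF4 counts in ALA replicates 1 to 3 and 48.15%, 49.97% and 46.85% in Ctrl replicates 1 to 3. CHAC1 counts were 8.25%, 6.58% and 7.59% of ATF4 counts in ALA replicates 1 to 3 and 14.4%, 19.5% and 15.3% in Ctrl replicates 1 to 3. CHAC1 thus moved furthest against ATF4 (log2 ratio -1.13) and CEBPG least (-0.37). These ratios were not corrected for the GC and length trend. With that trend removed, the log2 fold change of CEBPG (0.55) lay below those of CEBPB (0.63) and PPP1R15A (0.60), so the place of CEBPG did not hold. Each of the 9 had an exact two-sided permutation p of 0.1, the smallest possible, and 0.11 after Benjamini-Hochberg adjustment over the 11 ratios computed, so that none can pass 0.05. ATF4 made up 52.6%, 53.1% and 52.9% of the summed CPM of the 10 genes in ALA replicates 1 to 3 and 42.7%, 41.3% and 42.4% in Ctrl replicates 1 to 3.

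**Figure D3:**
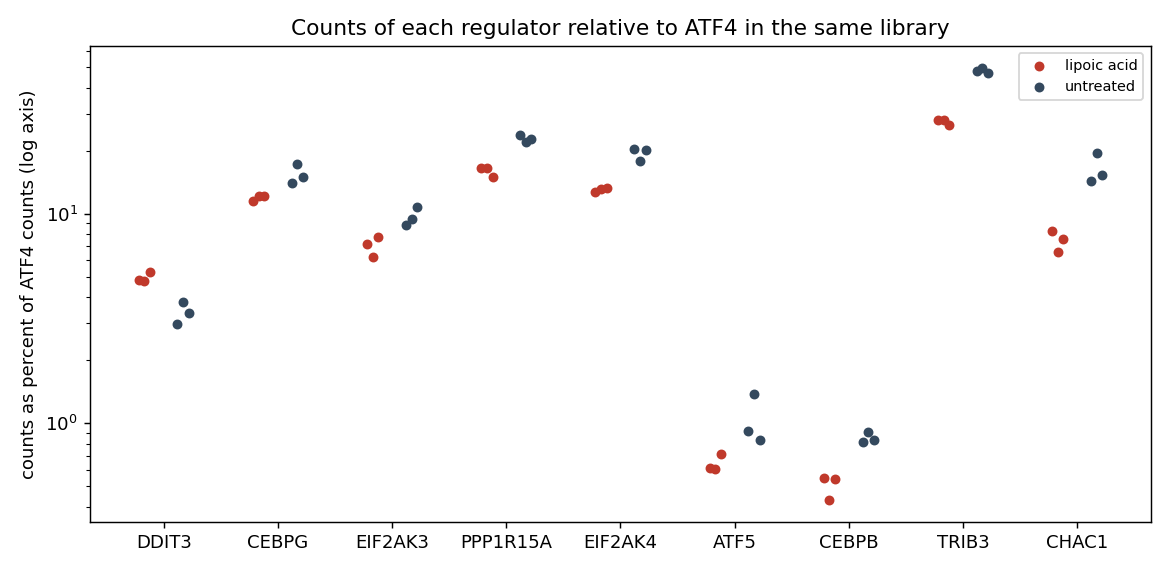
Counts of each regulator as a percent of ATF4 counts in the same library (log y axis), for the 3 lipoic acid libraries (red) and the 3 untreated libraries (dark blue), ordered from the highest to the lowest change of the ratio. DDIT3 is higher in lipoic acid libraries (4.80% to 5.25%, against 2.97% to 3.81%), and the other 8 are lower. Most tested genes would be lower too, as 9.40% had a larger log2 fold change than ATF4.

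Levels were set against each other per kilobase of exonic length (CPM per kb, lengths from GENCODE v29), which assumes that the authors' gene models had the same length. In ALA libraries ATF4 led with 348 ± 5.43 CPM per kb, then TRIB3 with 70.1 ± 3.02 and PPP1R15A with 45.4 ± 3.14. DDIT3 (33.1 ± 1.19) and CHAC1 (31.7 ± 3.53) followed and overlapped between libraries, ahead of CEBPG (23.7 ± 0.674), EIF2AK3 (11.3 ± 1.11) and EIF2AK4 (9.53 ± 0.199). CEBPB (2.26 ± 0.281) and ATF5 (1.89 ± 0.146) came last and overlapped as well. In Ctrl libraries ATF4 (174 ± 4.60) and TRIB3 (61.6 ± 2.68) again led in CPM per kb, followed by CHAC1 (34.8 ± 5.41) and PPP1R15A (32.4 ± 2.07), which overlapped, CEBPG (15.3 ± 1.47) and DDIT3 (11.3 ± 1.21). EIF2AK3 (7.80 ± 0.652) and EIF2AK4 (7.15 ± 0.588) overlapped there, and so did CEBPB (1.91 ± 0.104) and ATF5 (1.55 ± 0.437). DDIT3 was thus the fourth in ALA and the sixth in Ctrl libraries, while CHAC1 was the fifth in ALA and the third in Ctrl libraries.

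The counts of the pathway lists stand against 24.2% of all tested genes that rose and 23.3% that fell. Of the other kinases and proteins that act on the kinases, 3 of 7 tested rose (median log2 fold change 0.25). DNAJC3, an inhibitor of PERK and PKR, stood at 370 ± 8.26 CPM in ALA and 188 ± 6.58 CPM in Ctrl libraries (log2 fold change 0.98, adjusted p = 1.15e-06). EIF2AK1, the heme-regulated kinase HRI, averaged 171 ± 0.881 CPM in ALA and 144 ± 2.03 CPM in Ctrl libraries (0.25, adjusted p = 0.00377). GCN1, which activates GCN2, averaged 113 ± 5.30 CPM in ALA and 94.8 ± 9.04 CPM in Ctrl libraries (0.25, adjusted p = 0.0266). EIF2AK2, the kinase PKR, was not called, at 163 ± 0.780 CPM in ALA and 163 ± 9.57 CPM in Ctrl libraries (adjusted p = 0.967). Of the 12 genes of eIF2, its exchange factor eIF2B and the phosphatase, 2 were called higher and 3 lower, and 7 did not pass (median log2 fold change -0.05), shares near those of all tested genes. PPP1CA and PPP1CB, catalytic subunits of protein phosphatase 1, fell (log2 fold change -0.56 and -0.39), as did EIF2B4, a subunit of eIF2B (-0.33). EIF2S3, the gamma subunit of eIF2, rose (0.40, adjusted p = 0.00103). The adjusted p of the 3 falls was 0.00256 or less.

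Of 12 other ATF, CREB and C/EBP factors tested, 5 rose and 2 fell (4 without Ctrl replicate 2), with a median of -0.04, set against 24.2% and 23.3% of all tested genes. ATF3, a stress-induced relative of ATF4, measured 51.9 ± 7.50 CPM in ALA and 12.8 ± 0.340 CPM in Ctrl libraries (log2 fold change 2.02, adjusted p = 1.09e-06). ATF1 (1.08), ATF2 (0.58) and CREB3L2 (0.55) rose as well, with an adjusted p of 0.000194 or less. CEBPA and CEBPE, blood-lineage C/EBP factors, and ATF6B were too low to be tested.

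Most of the tested ATF4 targets rose. Of 28 genes of amino acid synthesis, amino acid transport and tRNA charging, 25 rose, 1 fell and 2 did not pass (median log2 fold change 0.88). The cystine importer gene SLC7A11 (3.14), asparagine synthetase gene ASNS (2.03), serine synthesis gene PSAT1 (1.67) and tryptophanyl-tRNA synthetase gene WARS (1.33) had the lowest p, the highest adjusted p of the 4 being 2.08e-07. SLC1A4, a neutral amino acid transporter, was the one that fell (-0.70, 152 ± 3.50 CPM in ALA and 246 ± 2.51 CPM in Ctrl libraries, adjusted p = 7.71e-06). Of 15 other targets tested, 11 rose and 4 did not pass (median 0.69), with STC2, a secreted stress protein (0.91), GABARAPL1 and SQSTM1 of autophagy (0.92 and 0.70) and DDIT4, an inhibitor of mTOR signalling (1.23), having the lowest p. FGF21, an ATF4-induced hormone of liver, had no count.

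Of 6 genes known to be induced through CHOP 5 rose, with a median of 0.35. DNAJC10, a reductase of the endoplasmic reticulum (0.58), TNFRSF10B, the death receptor DR5 (0.31), ERO1A, an oxidase of the same compartment (0.25), and BBC3, the death-promoting protein PUMA (1.40), had the lowest p, with an adjusted p of 0.00519 or less. BBC3 stood at 2.62 ± 0.163 CPM in ALA and 0.991 ± 0.238 CPM in Ctrl libraries, a low level. Of 13 genes of the IRE1 and ATF6 arms of the unfolded protein response, a list of sensors, proteases and chaperones, 11 rose and 2, ATF6 and MBTPS2, did not pass (median 0.90). HSPA5, the main chaperone of the endoplasmic reticulum (1.79), HERPUD1 of protein degradation (1.45), DNAJB9, a co-chaperone (1.39), and HSP90B1, a chaperone (1.26), had the lowest p, while the ATF6 transcript averaged 257 ± 3.86 CPM in ALA and 259 ± 17.8 CPM in Ctrl libraries (adjusted p = 0.893).

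Close relatives of TRIB3 and CHAC1 were not called. TRIB1 averaged 118 ± 4.64 CPM in ALA and 105 ± 5.98 CPM in Ctrl libraries (adjusted p = 0.0672), and TRIB2 39.6 ± 1.43 CPM in ALA and 33.7 ± 5.41 CPM in Ctrl libraries (adjusted p = 0.0996). CHAC2, which also cleaves glutathione, averaged 4.63 ± 1.00 CPM in ALA and 3.79 ± 0.346 CPM in Ctrl libraries (adjusted p = 0.319). Between 1 and 2 of the 4 genes of this list were called higher in 6 of 17 other settings, 2 of them without Ctrl replicate 2. Of 4 genes whose proteins act on ATF4 stability, EGLN3, a prolyl hydroxylase, fell (log2 fold change -0.72, 42.7 ± 2.26 CPM in ALA and 70.4 ± 0.358 CPM in Ctrl libraries, adjusted p = 2.98e-05). BTRC, FBXW11 and EGLN1 did not pass.

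**Figure D4:**
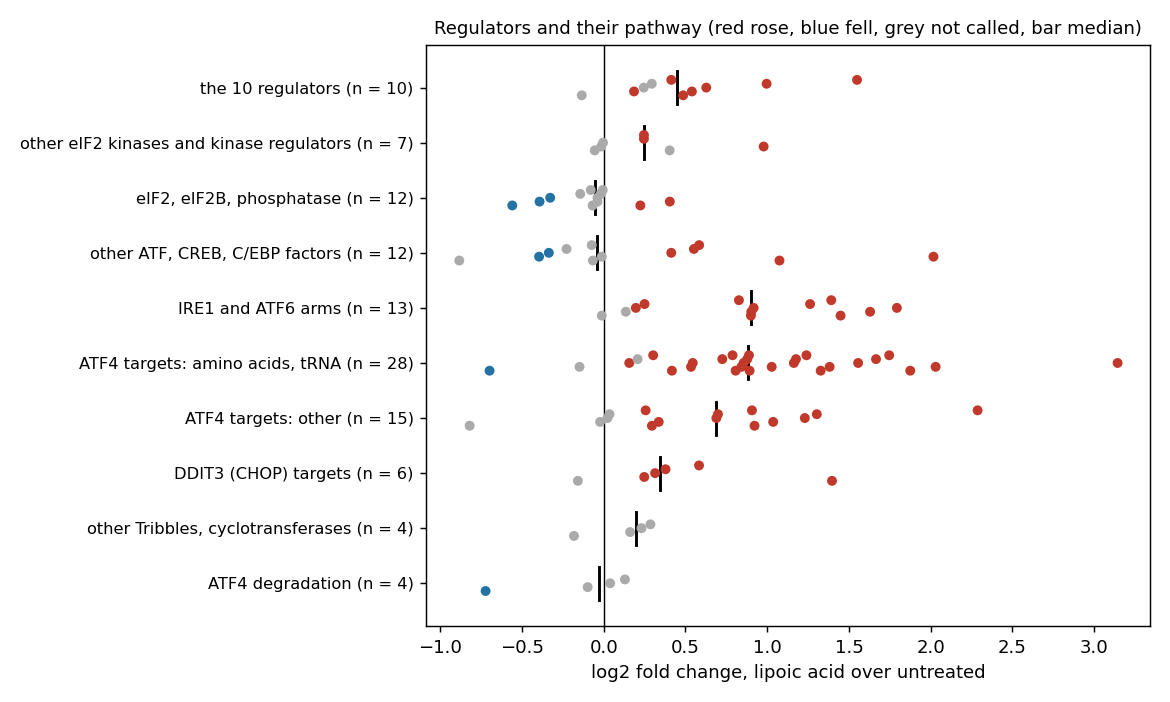
Log2 fold change, lipoic acid over untreated (x axis), of each tested gene of the 10 regulators and of 9 lists of their pathway, with red for a rise, blue for a fall, grey for no call and a bar at the median. The 28 metabolic targets centre on 0.88, above the median of 0.45 of the 10 regulators, a difference that was not tested.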

How the data were processed

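The authors deposited raw read counts per gene symbol, for which the submitters' processing notes name HISAT2, featureCounts and DESeq2 and the build hg38. Their versions and options, the gene models, strand use and the treatment of multi-mapped reads are not given in the sources used here. No column of the table was left unused. Analyses used R 4.3.3, edgeR 4.0.16, DESeq2 1.42.0 and limma 3.58.1. After filterByExpr, genes were tested for ALA minus Ctrl in all 6 libraries with group as the only term. A gene with an adjusted p under 0.05 rose or fell. The SE is the log2 fold change over the square root of F. Positions, lengths and exon overlaps came from GENCODE v29, which matched 29203 symbols (99.21%). The members and lists were chosen with earlier results of these data known, so a list's direction is no independent evidence. From each list up to 4 called genes with the lowest p were named, and others were named after their values were seen. DELE1 was not analysed here. Exact p-values are permutation tests over libraries. Alternatives were other scalings, filters and tools, the replicate block, halved even counts, the 4 libraries of even counts alone, no mitochondrial genes, a GC and length trend, and leaving out each library. PCR-amplified counts carry no molecular barcodes in the labels, so counting limits cover counting error alone.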

Additional observations from a re-analysis of the deposited data

How the results depend on the processing

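Under 17 other settings, ATF4, DDIT3, PPP1R15A, EIF2AK3, EIF2AK4 and CEBPG were called higher in all 17. Their log2 fold changes ran from 0.96 to 1.14 for ATF4, 1.49 to 1.69 for DDIT3, 0.39 to 0.60 for PPP1R15A, 0.44 to 0.63 for EIF2AK3, 0.20 to 0.48 for EIF2AK4 and 0.55 to 0.72 for CEBPG. TRIB3 kept its call in 13 of the 17, CEBPB gained one in 1 and ATF5 in 2, and CHAC1 turned positive without a call in 3, at 0.0019 without Ctrl replicate 2, 0.011 in the 4 libraries of even counts and 0.15 with the GC and length trend removed (the cause was not tested). With each library left out its log2 fold change ran from -0.21 to 0.0019. The number of members called higher was 6 to 8, also with each library left out, and none was called lower (0 in every setting). Without Ctrl replicate 1, even counts and treatment coincide and cannot be told apart. In the 4 libraries of even counts the lone Ctrl library is assumed to vary like the others. Calls over all genes ran from 2669 to 3772 higher and 2386 to 3713 lower. Same-numbered libraries of the groups correlated at 0.06, 0.06 and 0.078 in their deviations from the group means, and the other pairs at -0.058 to 0.009. Each library thus correlated best with its own number, a hint from the data and not from the design. The labels do not say whether the numbers pair the libraries, and correlations this small cannot settle it. With the replicate block, 7 members, 3354 genes higher and 3203 lower were called, against 7, 3329 and 3205 without it. List counts were within 1.5 times the reported ones apart from the relatives of TRIB3 and CHAC1 (0 reported, 1 or 2 higher in 6 settings, the replicate block among them with 2), the other bZIP factors (2 lower, 4 without Ctrl replicate 2) and, with the GC and length trend removed, 1 gene each of the eIF2, CHOP target and ATF4 stability lists. At this depth, CEBPB and ATF5, with 107 to 252 counts in a library, allow fold changes up to 1.63 and 1.74.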
